A study of Mus musculus with 14 samples.

Results

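The control olfactory epithelium of both RNA-seq experiments in the series was described at postnatal day 5, the age at which every pup was taken. The controls make up 7 of the 14 mice. Each was a single pup whose whole olfactory epithelium gave 1 library. The members were chosen by label alone, as the control mice of either experiment. The 3 Kir2.1 controls were OMP-IRES-tTA heterozygotes from the litters of pups in which the potassium channel Kir2.1 was switched on in olfactory sensory neurons (OSNs). They carried the tetracycline transactivator tTA in the Omp locus, which is active in mature OSNs. The 4 PEA controls were wild-type pups that were never exposed to the odorant PEA. The labels give C57BL/6 as the background of both, whereas the study's methods name CD-1 pups for the PEA experiment. The Kir2.1 libraries were selected for poly-A tails and read without strand at 40 bp. The PEA libraries were depleted of ribosomal RNA and read with strand at 150 bp. The study's methods give 1 reverse-stranded setting for the quantification of both, although the Kir2.1 reads carry no strand, and its effect on the Kir2.1 values was not tested. Strain, tTA allele, library chemistry, read length and strand therefore all change together between the 2 sets, and they cannot be told apart in any difference given below. No test was run between the sets, because the tables were normalized separately. The comparison asks how far the baseline of the same tissue at the same age holds from one experiment to the other.

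The olfactory epithelium is renewed throughout life. Basal stem and precursor cells give rise to immature OSNs and then to mature OSNs, each of which settles on a single odorant receptor (OR) gene. Mature OSNs turn odorant binding into current through a G protein, an adenylyl cyclase and a cyclic nucleotide-gated channel. Sustentacular cells support the neurons and break down foreign molecules, and glands beneath the epithelium secrete the proteins of the nasal mucus.

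Each deposited column was rescaled to a sum of 1000000, and this value is called CPM below. Levels of different genes were ordered by CPM per kb of exon, except in rank correlations and the filter, which used CPM. Differences between the sets are PEA controls minus Kir2.1 controls on the log2(CPM + 1) scale, which understates the change of low genes. A gene passed the filter when the mean of the set means reached 1 CPM, and 17160 genes did. A gene was counted past the set rule when the 2 sets did not overlap and their means lay at least 4-fold (2 log2 units) apart. Over all 17160 genes, 465 (2.71%) passed the rule with higher values in the PEA controls and 1380 (8.04%) with lower values. Non-overlap alone was common, with 12122 genes (70.6%), of which 5275 (30.7%) were higher and 6847 (39.9%) lower in the PEA controls. The median difference over all genes was -0.11, so a value of that size marks no shift. Read depth is unknown, since the deposited values are normalized. After the authors' scaling the columns summed to between 11476100 and 34198500.

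Both sets carried the markers of the olfactory epithelium at high levels. By CPM per kb, Omp, the marker of mature OSNs, ranked 63 among nuclear protein-coding genes in the Kir2.1 controls and 69 in the PEA controls, at 462 and 265 CPM per kb. The calcium-binding protein gene S100a5, another gene of mature OSNs, ranked 62 and 48. Ugt2a1, a detoxifying enzyme of sustentacular cells, ranked 19 and 17. Gap43, which is found in growing axons, ranked 226 and 189. Genes of neighbouring tissue ranged from near 0 to high. Of 7 muscle genes, 2 passed the filter, and the summed level of that list was 7.6 ± 0.7 CPM in the Kir2.1 controls (SD, n = 3) and 3.6 ± 0.6 CPM in the PEA controls (n = 4). Of 9 bulb genes, 6 passed, with sums of 124.8 to 155 CPM and 87.1 to 121.6 CPM, most of it from Cdhr1, while the dopaminergic marker Th reached at most 0.218 CPM. Vomeronasal, bone and collagen genes were well above 0 in some mice and are given with the differences between mice at the end. Fewer cells of a type and less RNA per cell cannot be told apart in such bulk tissue.

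The highest genes differed between the sets. Among nuclear protein-coding genes ordered by CPM per kb, the 15 highest of each set shared 6 genes, the 100 highest shared 56 and the 1000 highest shared 634. In the Kir2.1 controls the order began with Bpifa1, a mucus protein (3379 CPM per kb), Tuba1a, the alpha-tubulin of growing neurons (3075), Bpifb9b (3022), Cbr2, a carbonyl reductase (2749), and Eef1a1, a translation elongation factor (2687). In the PEA controls it began with Bpifb9b (28738 CPM per kb), Gm6619 (13830), Bpifb9a (3942), Bpifa1 (3494) and Eef1a1 (2849). Eef1a1 held its level closely, with 6637, 6874 and 6584 CPM in the Kir2.1 controls and 8754, 6352, 8097 and 5204 CPM in the PEA controls. Bpifa1 also overlapped, with 4312, 4095 and 7253 CPM against 7677, 5034, 4974 and 3907 CPM. The nuclear protein gene Ptma and the actin-binding Tmsb4x also overlapped, with differences between the sets of 0.07 and 0.12. In contrast, Cbr2 went from 3887, 2861 and 4196 CPM to 699, 632, 508 and 608 CPM, a difference of -2.56 ± 0.19 (SE). Rplp1, a protein of the ribosomal stalk, had the sixth rank in the Kir2.1 controls with 1134, 1033 and 1001 CPM, and stood at rank 166 in the PEA controls with 56.8, 74.0, 57.4 and 79.8 CPM.

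Ranks across all genes were ordered alike within each set and less so between them. Spearman's rho across the 17160 genes was 0.81 between the set means. It ranged from 0.984 to 0.986 among the Kir2.1 controls, from 0.960 to 0.980 among the PEA controls, and from 0.786 to 0.816 over the 12 pairs that cross the sets. These are correlations across genes, which are not independent replicates, and the members of a set share chemistry and normalization. The plot of set means shows where the families of genes depart from equality.

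**Figure D1:**
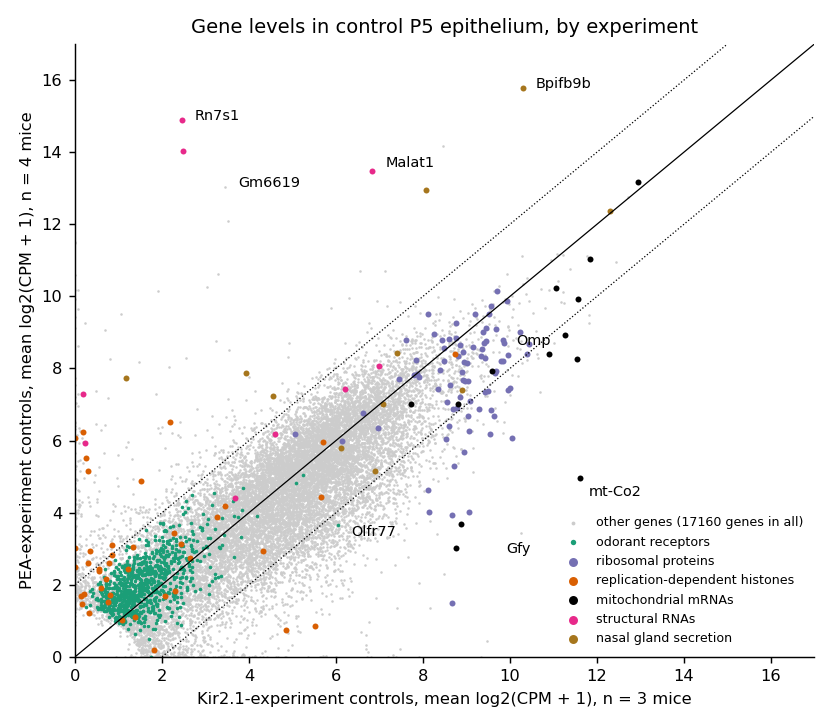
Mean log2(CPM + 1) of each gene in the 3 Kir2.1 controls (x axis) and the 4 PEA controls (y axis), with gene families in colour, equality as a solid line and the 4-fold limits dotted. Several structural RNAs and replication-dependent histone genes lie above the upper limit, ribosomal protein and mitochondrial genes lie mostly below equality, and odorant receptors (green) lie near it at low levels.

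The genes of mature OSNs and of odor transduction differed by less than the 4-fold limit in every case, although most did not overlap. Of 13 mature OSN genes, 0 passed the set rule, 8 were lower without overlap in the PEA controls and 1 was higher, against 39.9% and 30.7% of all genes. Their median difference was -0.55. Omp measured 966, 947 and 1060 CPM in the Kir2.1 controls and 540, 621, 496 and 618 CPM in the PEA controls, a difference of -0.80 ± 0.09. The sets did not overlap, and the Kir2.1 controls carry the tTA insertion in this same gene. Its part in the difference was not tested. Gnal, the alpha subunit of the olfactory G protein, overlapped, with 717, 856 and 826 CPM against 586, 818, 693 and 689 CPM. Cnga2, the main subunit of the transduction channel, was higher in the PEA controls, with 316, 301 and 344 CPM against 396, 425, 398 and 409 CPM (0.35 ± 0.06). The other channel subunits went the opposite way, Cnga4 by -0.996 ± 0.137 and Cngb1 by -1.25 ± 0.15, so the subunits of one channel stood in different proportions in the 2 sets. The cyclase gene Adcy3 had the largest difference of the list, with 464, 536 and 551 CPM against 129, 176, 134 and 185 CPM (-1.74 ± 0.15). Slc12a2, the transporter that loads OSNs with chloride, differed most upward among the 12 transduction genes, with 307, 346 and 362 CPM against 630, 786, 732 and 762 CPM (1.10 ± 0.10). Ano2, the calcium-gated chloride channel, overlapped, with a difference of -0.00 ± 0.07. Kcnj2, which encodes Kir2.1 itself, stood at 29.8, 31.9 and 37.3 CPM in the Kir2.1 controls and at 73.3, 93.6, 84.3 and 115.7 CPM in the PEA controls.

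Genes of the younger stages had the same median direction and included some past the rule. Of 10 immature OSN genes, 3 were past it, against 8.04% of all genes downward, and all 3 were lower in the PEA controls: Dpysl5 (-3.10 ± 0.33) and Crmp1 (-2.18 ± 0.10), both of the collapsin response family, and the G protein subunit gene Gng8 (-2.79 ± 0.26). Gng8 measured 81.0, 74.6 and 73.2 CPM against 8.62, 13.2, 6.27 and 14.4 CPM. Gap43 differed by -0.41 ± 0.10, with 264, 222 and 242 CPM against 168, 209, 177 and 178 CPM. Of 11 globose basal and precursor genes, 2 were past the rule, both lower in the PEA controls. Neurog1, a proneural factor of OSN precursors, was one of them and measured 32.8, 53.2 and 34.7 CPM against 6.75, 8.59, 6.48 and 4.81 CPM. Not all of this list, whose median was -0.67, went down. Mki67, a marker of cycling cells, measured 184, 229 and 187 CPM against 328, 380, 380 and 404 CPM, and Top2a, a topoisomerase of the same phase, differed by 0.75 ± 0.11. Kir2.1 control 2 had the highest Neurog1 and Mki67 of its set, while in the PEA controls the highest values came from different mice, control 2 for Neurog1 and control 4 for Mki67.

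Among genes that act in OR choice and trafficking, 3 of 16 (18.8%, against 8.04% of all genes) were past the rule, all lower in the PEA controls. Atf5, the stress-response factor that OR translation switches on, measured 1646, 1719 and 1591 CPM against 139, 189, 133 and 192 CPM. Lhx2, a homeodomain factor that OR enhancers need, differed by -2.42 ± 0.12, and the histone methyltransferase gene Ehmt2 by -2.39 ± 0.13. Rtp1, which carries ORs to the cell surface, overlapped with a difference of -0.21 ± 0.11, and Kdm1a, a histone demethylase that acts at OR activation, overlapped with -0.08 ± 0.09. Of 21 genes of axon guidance and sorting, 5 (23.8%) were past the rule, again all lower. Kirrel2, a homophilic adhesion molecule of OSN axons, measured 427, 428 and 375 CPM against 54.9, 69.4, 39.2 and 64.2 CPM. Nrp1, the receptor for Sema3a, was higher by 0.57 ± 0.08, while Sema3f and Sema7a were lower by more than the limit. Of 11 immediate early genes, which neurons switch on with activity, 9 passed the filter and 4 of these (44.4%) were past the rule. All 9 were lower in the PEA controls without overlap, against 39.9% of all genes. Jun measured 192, 200 and 198 CPM against 35.4, 44.0, 35.8 and 31.6 CPM, and Junb 26.1, 21.2 and 26.7 CPM against 1.20, 1.34, 0.705 and 1.22 CPM. Nr4a1 stood apart in Kir2.1 control 1 with 121 CPM, against 34.96 and 34.15 CPM in the other 2 controls of its set.

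Sustentacular genes had a median of -0.69, with 7 of 10 lower without overlap, against 39.9% of all genes. Cbr2 alone was past the rule downward (10%), near the 8.04% of all genes. The cytochrome P450 genes Cyp2a5 and Cyp2g1, which metabolize odorants, differed by -0.66 ± 0.20 and -0.62 ± 0.16, and Ugt2a1 overlapped (0.11 ± 0.15). Respiratory ciliated genes had a median of 0.80 with opposite extremes. Dnah5, a long dynein heavy chain of motile cilia, measured 90.7, 103 and 121 CPM against 618, 434, 595 and 445 CPM and was past the rule upward, whereas Foxj1, the factor that commits cells to motile cilia, measured 159, 186 and 185 CPM against 38.8, 32.7, 34.3 and 36.2 CPM and was past it downward. The ensheathing glia list behaved likewise, with Apod at 1.62 ± 0.09 and Sox10, the glial lineage factor, at -2.48 ± 0.24. Endothelial genes had a median of 0.62 over 8 genes, 0 of them past the rule. In the ciliated and glial lists, genes of the same cells therefore stood on opposite sides. The GC content of Foxj1 and Sox10 transcripts was 61.4% and 61.8%, against 47.1% for Dnah5 and 47.8% for Apod.

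The differences followed the GC content of the genes. Across 15413 protein-coding genes, Spearman's rho between the difference and the GC content of the longest transcript was -0.75. The median difference fell from 0.84 in the lowest of 10 equal bins of GC, up to 40.01%, to -1.90 in the highest, from 57.7%. Of the 1227 protein-coding genes past the rule downward, 985 (80.3%) lay in the 2 upper bins. In the uppermost bin 697 of 1542 genes (45.2%) passed the rule downward and 3 passed it upward. Exon length had a weaker relation of the opposite sign (rho = 0.24), with medians from -0.56 in the shortest of 10 bins to 0.56 in the longest. Within a set, the deviation of each mouse from its set had rho with GC between -0.19 and 0.14. When the median of a gene's GC bin was subtracted, a step added after the data were seen, the rule counted 379 genes (2.22%) upward and 309 (1.81%) downward. Of the genes counted before, 277 of the 465 and 254 of the 1380 remained, and rho across genes rose to 0.90. The gene lists moved with it, as the plot of list medians shows. Immediate early genes went from -1.98 to -0.68, sustentacular genes from -0.69 to -0.74 and mature OSN genes from -0.55 to -0.41. Other lists lay farther from 0 after centring, among them replication-dependent histones (1.32 to 1.95), fibroblast genes (0.92 to 1.04), mitochondrial rRNA and tRNA genes (-2.49 to -3.33) and reference genes (-0.17 to -0.34). Omp, with 57.0% GC, went from -0.80 to 0.49. Atf5 went from -3.35 to -1.45.

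**Figure D2:**
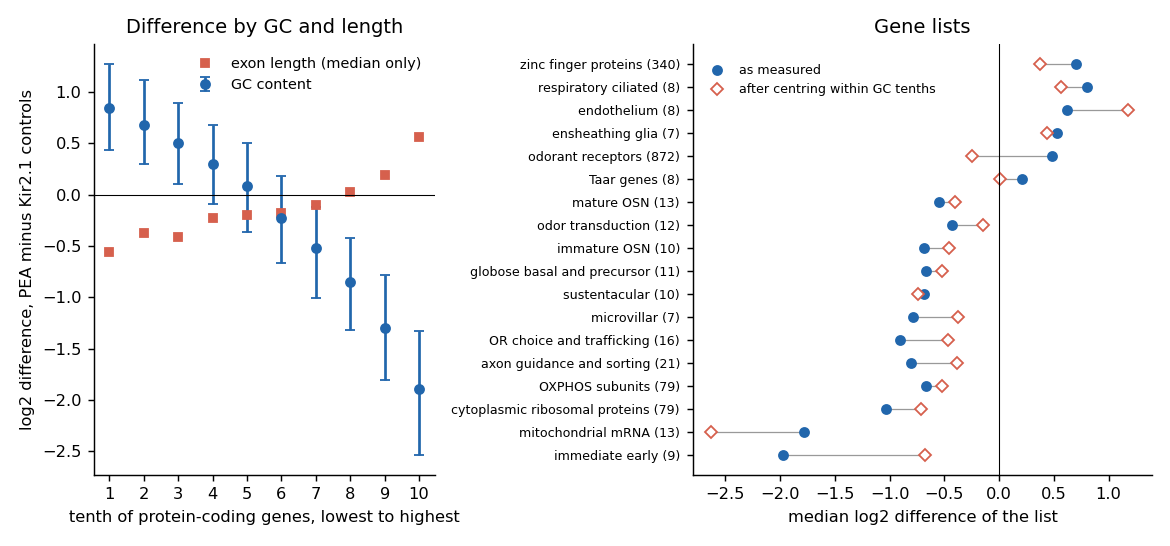
Left, median log2 difference (PEA minus Kir2.1 controls) of protein-coding genes in 10 equal bins of GC content, with quartiles as bars, and of exon length. Right, median difference of gene lists as measured (filled) and after centring within GC bins (open), with the number of genes that passed the filter. The difference falls steadily with GC, and most of the list medians drawn lie nearer to 0 after centring, while those of sustentacular genes, endothelial genes and mitochondrial mRNAs lie farther from it.

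OR genes took up a larger share of the PEA control libraries. The 1116 OR genes summed to 2331, 2501 and 2284 CPM in the Kir2.1 controls (0.237% ± 0.011 of the total) and to 2827, 3838, 3018 and 4811 CPM in the PEA controls (0.362% ± 0.090). The sets did not overlap, and the PEA controls varied more among themselves. The same held for the number of OR genes at 1 CPM or more, at 702 to 742 against 806 to 948. Of the 872 OR genes that passed the filter, 0 were past the set rule upward and 1 downward. Without overlap, 357 were higher and 50 lower, together 46.7%, against 70.6% of all genes. Their median difference of 0.48 turned to -0.25 after GC centring, and the median GC content of these transcripts was 38.5%. OR pseudogenes had a median of 0.65 over 38 genes, which turned to -0.18. Trace amine-associated receptors (Taar), a separate small family of olfactory receptors, summed to 13.2 to 17.8 CPM and 13.6 to 26.9 CPM, with a median difference of 0.21 over 8 genes, 0.01 after GC centring, and 0 past the rule. Taar6 overlapped, with 2.43, 2.71 and 3.21 CPM against 1.21 to 3.38 CPM. Taar1, which is not an olfactory receptor, was listed at 0 in all 7 mice.

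The order of the OR genes held in part. Spearman's rho across the 872 genes was 0.57 between set means per kb and 0.55 on CPM. On CPM it was 0.797 to 0.855 among the Kir2.1 controls, 0.727 to 0.823 among the PEA controls and 0.447 to 0.538 across the sets. By CPM per kb the 10 highest of each set shared 6 genes and the 100 highest shared 44. Olfr1507 ranked 1 in both sets, and Olfr536 ranked 2 in the Kir2.1 controls and 3 in the PEA controls. Olfr536 measured 36.7, 39.8 and 34.6 CPM against 41.6, 31.9, 21.6 and 37.5 CPM, and Olfr1507 measured 35.9, 29.0 and 34.5 CPM against 28.6, 36.8, 19.2 and 28.2 CPM. Both overlapped between the sets, and so did Olfr15 and Olfr533, the latter lowest in PEA control 3. Others changed place, such as Olfr1176, which ranked 71 per kb in the Kir2.1 controls (1.63 ± 0.38 CPM per kb) and 7 in the PEA controls (6.13 ± 1.65 CPM per kb). Olfr959 ranked 246 and 26, with 4.27, 5.35 and 4.97 CPM against 11.1 to 26.2 CPM. Neighbours in this order often lay within the spread between mice, as with the second to sixth places of the PEA controls, Olfr1388 (8.15 ± 0.83 CPM per kb), Olfr536 (7.74 ± 2.02), Olfr969 (6.71 ± 1.72), Olfr672 (6.62 ± 1.51) and Olfr727 (6.41 ± 2.84). Class I receptors, the 127 genes of the cluster on chromosome 7 that resembles fish receptors, held 12.1%, 16.2% and 15.8% of the OR sum in the Kir2.1 controls and 10.3%, 11.8%, 12.2% and 10.8% in the PEA controls. These ranges overlap through Kir2.1 control 1. The median difference was 0.20 for class I and 0.54 for class II genes, and -0.48 and -0.22 after GC centring.

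**Figure D3:**
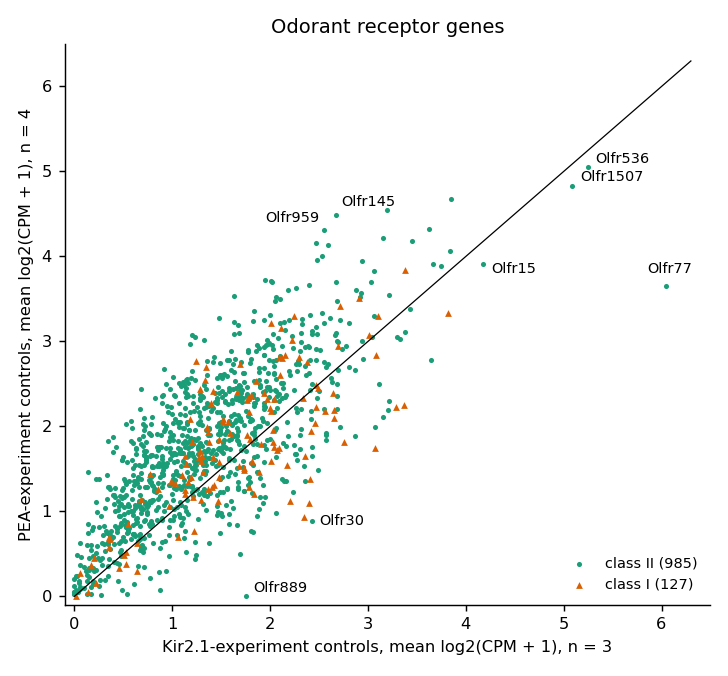
Mean log2(CPM + 1) of each odorant receptor gene in the 3 Kir2.1 controls (x axis) and the 4 PEA controls (y axis), class I genes as triangles and equality as a line. Most receptors lie above the line, Olfr536 and Olfr1507 are high in both sets, and Olfr77 lies farthest below it.

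The single OR gene past the rule was Olfr77, which measured 70.5, 52.3 and 75.4 CPM in the Kir2.1 controls and 8.57, 11.04, 11.5 and 16.3 CPM in the PEA controls. Per kb it ranked 3 and 307. The sets did not overlap. Without Olfr77 the OR sums were 2209 to 2449 CPM and 2818 to 4795 CPM, still without overlap. Olfr77 was also 1 of 10 OR genes whose transcripts match, over at least 150 bases on the opposite strand, a gene of 100 CPM or more in the Kir2.1 controls. The Kir2.1 reads do not mark strand, and whether reads of such genes entered the OR values was not tested. Another of the 10 was Olfr889, with 187 bases that match the ATP synthase gene Atp5l at 95.2% identity. Olfr889 measured 2.61, 2.11 and 2.39 CPM in the Kir2.1 controls and was listed at 0 in all 4 PEA controls. The 10 genes did not share a direction, since Olfr11 (1.28), Olfr1055 (1.15), Olfr714 (0.87) and Olfr784 (0.24) were higher in the PEA controls.

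RNAs without a poly-A tail were among the largest upward differences. Of the 10 largest of any type, 4 were structural RNAs (Rn7s1, Rn7sk, Rn7s6 and Scarna10), 3 were copies of mitochondrial genes described below (Gm28437, Gm28661 and Gm10925), and 3 were annotated as protein coding (Gm10718, Gm10800 and Gm6619). Of 34 small structural RNAs that passed the filter (snRNA, snoRNA, scaRNA, ribozyme and other structural RNA types), 32 were past the rule upward, against 2.71% of all genes. Some of them passed the filter only through the PEA controls, such as Rn7s6, which was listed at 0 in all 3 Kir2.1 controls. All snRNA genes together held at most 0.0013% of a Kir2.1 control total, and all snoRNA genes at most 0.00097%. The count of 32 is therefore raised by the filter. Other short RNA types went down. Of 13 miRNA genes, 8 were past the rule downward (median -3.03), against 8.04% of all genes. Of 7 mitochondrial tRNA genes, 6 were (median -2.71). Rn7s1, a 7SL RNA of the signal recognition particle, measured 3.98, 5.37 and 4.12 CPM in the Kir2.1 controls and 26478, 35389, 20310 and 46058 CPM in the PEA controls. Rn7sk, which restrains transcription elongation, measured 3.02, 5.54 and 5.53 CPM against 18541, 18536, 14266 and 15895 CPM. Malat1, a long nuclear RNA whose end is a triple helix in place of a tail, measured 110, 99.7 and 131 CPM against 11394, 12124, 11374 and 10888 CPM. Neat1, which has tailed and untailed forms, differed by 1.09 ± 0.09. The RNA-type misc_RNA alone took 3.53% to 6.31% of the PEA control totals and at most 0.0029% of the Kir2.1 control totals. Protein-coding genes held 97.8% to 97.9% of the Kir2.1 control totals and 86.9% to 89.8% of the PEA control totals.

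Replication-dependent histone genes, whose mRNAs end in a stem-loop in place of a poly-A tail, had a median difference of 1.32, and of 1.95 after GC centring. Of 66 genes in the tables, 41 passed the filter, 11 of them past the rule upward (26.8%, against 2.71% of all genes) and 2 downward. Most of the 11 passed the filter only through the PEA controls, such as H2bc15 and H2bc18, which were listed at 0 in every Kir2.1 control. The share of 26.8% is therefore raised by the filter. H2bc3 measured 0.179, 0.345 and 0.147 CPM against 31.9, 35.5, 30.6 and 41.2 CPM. The linker histone genes H1f1, H1f4 and H1f5 differed by 6.07, 4.34 and 5.26, with means of 0.127, 3.58 and 0.185 CPM against 74.9, 91.1 and 44.5 CPM. The 2 that went down were H2ac18, with 40.9, 38.9 and 57.1 CPM against 0, 3.11, 1.03 and 0.263 CPM, and H2ac19, with 22.8, 25.1 and 36.9 CPM against 0.621, 0, 0 and 3.87 CPM. These 2 genes are near-identical to each other, and 42 of the 66 histone genes have a near-identical partner, as defined below. With partners summed, 9 of 28 features were past the rule upward and 2 downward, with a median of 1.32. H3c14, 1 of the 11 genes counted upward, is 100% identical to Gm20634. The sum of H3c14 and Gm20634 was lower in the PEA controls, at 81.1 ± 3.8 CPM in the Kir2.1 controls against 19.3 ± 3.5 CPM. The stem-loop was searched as a pattern of 16 bases that starts with GG, ends with CC and has T at positions 6, 7 and 9 and A at position 11, on the transcript's own strand in its last 150 bases. It was found in 24 of 65 histone genes with a transcript, and in 0.493% of all genes. Only annotated transcript ends were searched, so a gene without a match may still have a stem-loop. The counts therefore cannot show whether the stem-loop goes with the direction of the difference. Of 16 genes with a match that passed the filter, 2 were past the rule upward and 2 downward (median 0.91). Of 24 without a match, 9 were past the rule upward and 0 downward (median 1.63), so most of the upward genes had no match. The genes with a match that were past the rule went both ways, as the following 30 bases of 4 transcripts (GRCm38) show, with the 16 bases of the stem-loop in capitals. They lie at chr13:23747203-23747218 (H2bc3), chr13:21722506-21722521 (H2bc14) and chr3:96246032-96246047 (H2ac18) on the plus strand and at chr3:96239784-96239799 (H2ac19) on the minus strand.
H2bc3: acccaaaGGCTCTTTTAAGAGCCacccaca
H2bc14: acacaaaGGCTCTTTTCAGAGCCactaagc
H2ac18: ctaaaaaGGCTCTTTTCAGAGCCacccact
H2ac19: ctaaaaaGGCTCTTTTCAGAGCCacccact
Replacement histone genes, whose mRNAs mostly carry a tail, went the other way with a median of -0.72 over 9 genes. H3f3a and H3f3b overlapped, whereas H2ax and H1f10 were past the rule downward, H1f10 with 91.8, 108 and 109 CPM against 0.134, 0.0993, 0.276 and 0.149 CPM. The GC content of H1f10 was 71.3%, and that of H2ax 62.3%.

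Mitochondrial RNAs split by kind. The 13 mitochondrial mRNAs, which encode subunits of the respiratory chain, had a median difference of -1.79, with 6 (46.2%, against 8.04% of all genes) past the rule downward and 0 upward. They summed to 29604 ± 2259 CPM in the Kir2.1 controls and 15849 ± 3262 CPM in the PEA controls. With the near-identical copies described below added, the sums were 29620 ± 2258 and 23688 ± 2470 CPM, and 4 genes were past the rule, with a median of -1.65. mt-Co1 overlapped, with 8388, 7480 and 7726 CPM against 9813, 8058, 9407 and 10015 CPM. mt-Co2 measured 3382, 2947 and 3005 CPM against 34.2, 79.2, 0 and 342 CPM, and mt-Cytb differed by -1.65 ± 0.19. The ribosomal RNAs of the mitochondrion took 0.0411% to 0.0605% of the Kir2.1 control totals and 1.64% to 2.37% of those of the PEA controls. For the nuclear genes of the same chain, 79 passed the filter with a median of -0.67, 10 of them (12.7%, against 8.04%) past the rule downward and 0 upward.

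Some of these genes have a near-identical copy whose value went the opposite way. Gm28661, on chromosome 1 at 24614885 to 24615565, matches mt-Co2 at 100% identity over 681 bases. It was listed at 0 in all 3 Kir2.1 controls and measured 2935, 2598, 2818 and 3145 CPM in the PEA controls. The sum of both was 3112 ± 237 CPM in the Kir2.1 controls and 2988 ± 353 CPM in the PEA controls, a difference of -0.06. Gm28437 stands in the same relation to mt-Co3, and their sums were 3685 ± 288 and 5803 ± 624 CPM. Gm10925 does so to mt-Atp6, and their sums still differed by -1.01. The same was measured for some nuclear genes. Fam177a and its 100% identical copy Fam177a2 each held all of their shared value in one set, at 63.1 ± 7.7 CPM for Fam177a in the Kir2.1 controls and 37.9 ± 0.9 CPM for Fam177a2 in the PEA controls. For Vcp, an ATPase that extracts proteins from complexes, and Vcp-rs, the value was 794 and 0.764 CPM in the Kir2.1 controls and 165 and 306 CPM in the PEA controls. In contrast, the alpha-globin genes Hba-a1 and Hba-a2 were both lower in the PEA controls, at 81.3 and 112.6 CPM against 45.7 and 0.09 CPM. They summed to 194 ± 84 and 45.8 ± 7.5 CPM, with Hba-a2 near 0 only in the PEA controls. A near-identical partner (95% identity over 80% of the shorter and 50% of the longer transcript) was found for 4.39% of all genes that passed the filter, for 29.0% of those past the rule upward and for 7.39% of those past it downward. When partners were summed, the counts were 374 upward and 1330 downward among 16815 features. How reads were shared within a pair cannot be resolved from these values, and single values of such genes are uncertain.

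**Figure D4:**
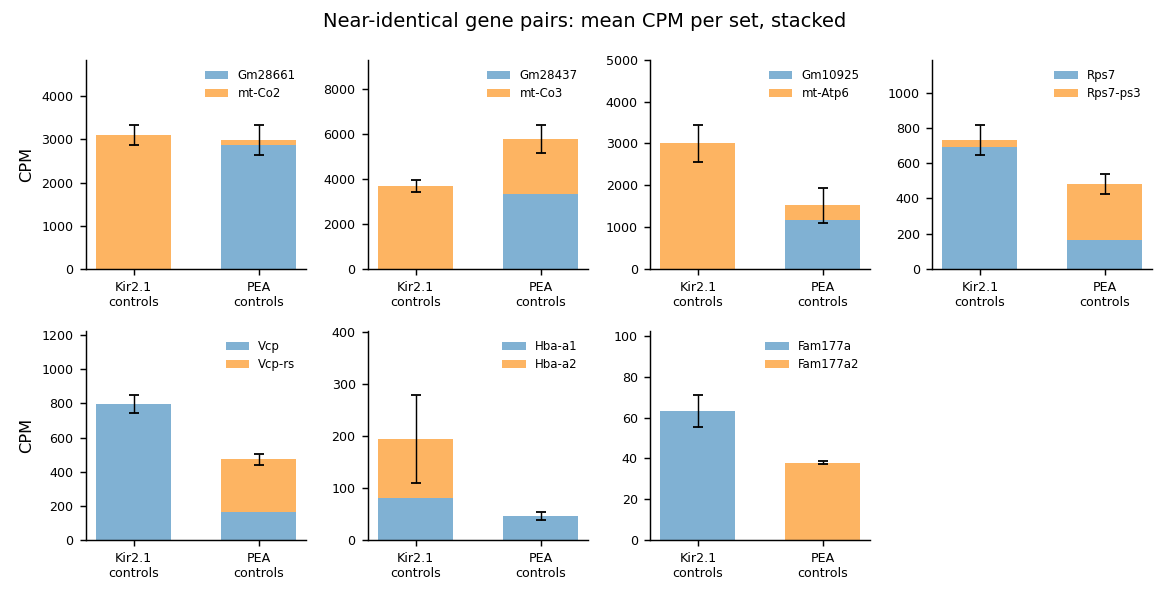
Mean CPM of both genes of 7 near-identical pairs, stacked, in the 3 Kir2.1 controls and the 4 PEA controls, with the SD of the sum as a bar. The sum of mt-Co2 and Gm28661 is alike in both sets while nearly all of it moves from one gene to the other, and the sum of Vcp and Vcp-rs is lower in the PEA controls, at 471 ± 32 against 795 ± 52 CPM.

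Cytoplasmic ribosomal protein genes were lower in the PEA controls. They summed to 44486 ± 3098 CPM in the Kir2.1 controls and 23321 ± 2840 CPM in the PEA controls. Of 79 that passed the filter, 21 (26.6%, against 8.04% of all genes) were past the rule downward and 0 upward, with a median of -1.03, and of -0.72 after GC centring. Rpl29 measured 453, 409 and 351 CPM against 2.58, 2.30, 1.22 and 1.47 CPM. Many copies of these genes lie in the genome, and with copies summed 17 of the 79 were past the rule, with a median of -0.91. Zinc finger protein genes had a median of 0.70, and of 0.37 after GC centring. Of 340, 15 (4.41%) were past the rule upward and 22 (6.47%) downward, near the 2.71% and 8.04% of all genes. Gfy, the gene of a Golgi protein of OSNs, was also among the 10 largest downward differences. Gfy measured 1184, 1377 and 1113 CPM in the Kir2.1 controls and 6.44, 11.7, 7.32 and 16.1 CPM in the PEA controls, a difference of -6.82 ± 0.29. Its difference stayed at -4.93 after GC centring, and the GC content of its transcript was 58.5%.

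Of the genes listed for strain, 1 passed the filter. Nnt, the mitochondrial nicotinamide nucleotide transhydrogenase that carries a deletion in the C57BL/6J substrain, measured 11.4, 11.3 and 10.99 CPM in the Kir2.1 controls and 46.9, 41.8, 43.0 and 35.2 CPM in the PEA controls. The sets did not overlap, with a difference of 1.80 ± 0.09, and 2.03 after GC centring. The class II gene H2-Ea was below 1 CPM in all 7 mice.

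The spread between mice differed between the sets. The median coefficient of variation between mice was 9.65% in the Kir2.1 controls and 17.7% in the PEA controls, over genes of 1 CPM or more. Of the 5 most variable genes of each set from 10 CPM, 4 in the PEA controls and 2 in the Kir2.1 controls were pseudogenes. Ttn, the giant protein of muscle, was the other in the PEA controls, with 71.1 CPM in control 1 and 2.77 to 6.21 CPM in the rest. Genes of secreted proteins varied strongly among the Kir2.1 controls. Bpifb9b, a secreted protein of the BPI family, measured 180, 17953 and 608 CPM in Kir2.1 controls 1, 2 and 3 and 70652, 32846, 82599 and 51510 CPM in the PEA controls. Kir2.1 control 2 thus stood far above the other 2 controls of its set and below all PEA controls. Bpifb9a, which is 99.3% identical to Bpifb9b, measured 34.9, 4858 and 111 CPM against 8174, 6687, 16773 and 4209 CPM. For Bpifb9a the sets overlapped, since Kir2.1 control 2 lay above PEA control 4. Gm6619 measured 0.0309, 849 and 0.463 CPM against 10611, 7545, 8240 and 7238 CPM. Obp1a, an odorant-binding protein of nasal mucus, measured 0.193, 5.09 and 0.536 CPM against 424, 172, 195 and 143 CPM, and Mup4, a lipocalin of the major urinary protein family, was listed at 0 in Kir2.1 controls 1 and 3 and measured 3.19 CPM in control 2 and 400 to 664 CPM in the PEA controls. The genes at least 5-fold higher in a single mouse than in the other 2 numbered 34, 39 and 32 in Kir2.1 controls 1, 2 and 3. Of the 39 genes of control 2, 35 passed the filter. In 19 of these 35 every PEA control was above every Kir2.1 control, against 30.7% of all genes. Bhlha15, a factor of secretory cells, was one of them with 2.42, 22.2 and 2.34 CPM against 24.3, 24.6, 31.4 and 27.8 CPM. Of the 11 gland genes that passed the filter, 4 were past the rule upward (36.4%, against 2.71% of all genes), namely Bpifb9b, Obp1a, Obp2a and Dmbt1. Bpifa1, Bpifb9a, Muc5b and Bpifb3 overlapped, and Aqp5, a water channel of gland cells, was lower at -1.74 ± 0.07. Without Kir2.1 control 2, the difference of Bpifb9b rose from 5.48 to 7.40 and that of Gm6619 from 9.58 to 12.73.

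**Figure D5:**
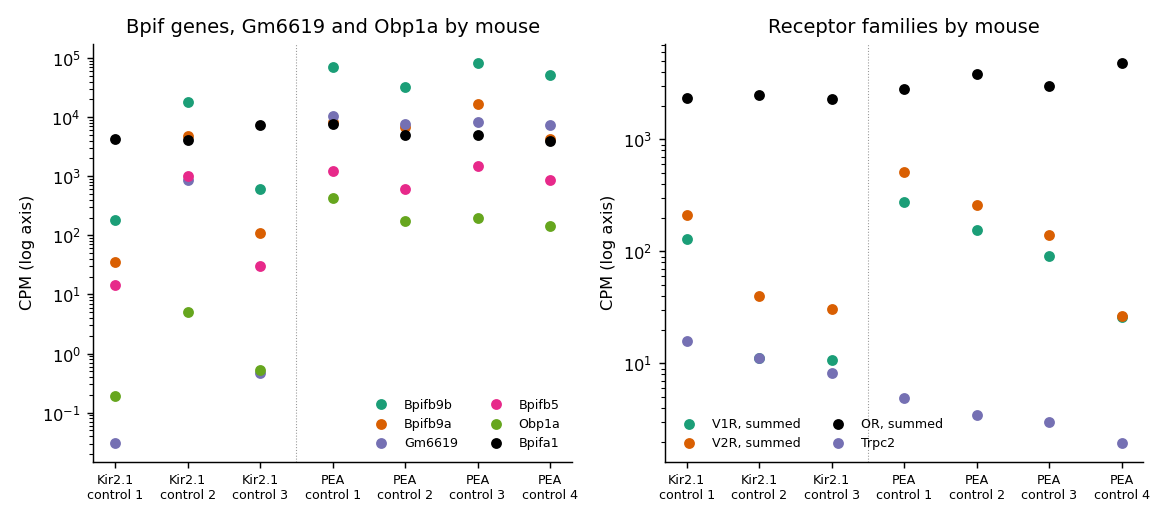
CPM of 6 genes (left) and of summed receptor families and Trpc2 (right) in each of the 7 control mice, on log axes. Gm6619, Obp1a and the Bpif genes other than Bpifa1 are higher in Kir2.1 control 2 than in the other Kir2.1 controls, and are high in every PEA control. V1R and V2R sums are highest in Kir2.1 control 1 and PEA control 1 of their sets, where OR sums are not.

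Vomeronasal receptor genes, which are used by the neurons of the vomeronasal organ beside the nasal septum, varied between mice in a way of their own. V1R genes summed to 129, 11.2 and 10.8 CPM in the Kir2.1 controls and to 274, 154, 90.1 and 25.8 CPM in the PEA controls. V2R genes summed to 209, 39.6 and 30.5 CPM and to 514, 260, 139 and 26.5 CPM. Of the 34 genes that were at least 5-fold higher in Kir2.1 control 1 than in the other 2, 18 were vomeronasal receptors. The 34 came from 16629 genes with a mean of 1 CPM or more in the Kir2.1 controls. Among the 17160 genes that passed the filter, 27 were V1R and 58 were V2R genes. Calr4, a calreticulin of vomeronasal neurons, was likewise highest in control 1 of each set, at 19.3, 2.80 and 2.86 CPM and 49.4, 15.3, 8.33 and 1.85 CPM. Trpc2, the channel of vomeronasal transduction, measured 15.96, 11.2 and 8.26 CPM against 4.94, 3.44, 2.98 and 1.96 CPM. Within each set this was the order of mice of the V1R and V2R sums. Both genes are on a list of 5 vomeronasal neuron genes, whose median difference was -1.56, and -0.27 after GC centring. Of the 5, 2 were past the rule downward (40%, against 8.04% of all genes). The list summed to 755, 571 and 634 CPM against 212, 183, 149 and 182 CPM, not in that order of mice. Bone and collagen genes marked another mouse, with Col1a1 at 1064, 838 and 2754 CPM in Kir2.1 controls 1 to 3, and Ibsp, a bone matrix protein, at 67.5, 50.9 and 215 CPM. The red cell list summed to 339, 329 and 586 CPM in the same mice. The amount of gland, vomeronasal and bone tissue in each sample was not measured apart from these genes. Both sexes were among the mice of both sets by the level of Xist, which was at least 355 CPM in Kir2.1 controls 1 and 2 and PEA controls 3 and 4 and at most 1.25 CPM in the others.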

How the data were processed

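Whole olfactory epithelium of single pups was sequenced by the authors, who quantified reads with Salmon 1.3.0 against GRCm38 (Ensembl 100) with bias correction and a reverse-stranded setting, which conflicts with the unstranded Kir2.1 reads, summed estimates per gene and normalized each experiment separately with DESeq2 1.30.0. The deposited values are such normalized signal values per gene, not reads, so depth and counting error are unknown. The 7 control columns were each scaled to a sum of 1000000 (CPM) and compared on log2(CPM + 1). No test was run. Set means carry the SD, and differences carry the SE of the 2 sets. Names and exons were taken from GENCODE (GRCm38), matching 96.7% of 51211 symbols, and near-identical transcripts were found with blastn 2.17.0 by a rule set, and then tightened because it joined unrelated genes, after the data were seen. Named genes were the 15 highest per kb of each set, the 10 largest differences in each direction of at least 10 CPM, the 10 highest ORs of each set, the 5 most variable genes and members of the lists. The members and gene lists were chosen with earlier results of these data known. Bhlha15, the near-identical pairs, Olfr889 with Atp5l, OR genes ordered per kb or matched on the opposite strand, and single histone, mitochondrial, Taar and H1f genes were chosen after their values were seen. The set rule was tested on simulated data. Some results that were computed are not reported here.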

Additional observations from a re-analysis of the deposited data

Results flagged for a closer look

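In a group of 4 mice, a value was marked where its gap to the nearest of the others exceeded 0.829 of the group's range, a limit that chance passes in about 1 of 20 groups. Of 120 quantities of the PEA controls, 3 were marked. The fibroblast list summed to 3277 CPM in PEA control 1, against 2444 to 2566 CPM in the other 3. The immediate early list summed to 86.8 CPM in PEA control 2, against 77.9 to 78.6 CPM in the others. Olfr533 stood at 11.2 CPM in PEA control 3, against 14.9 to 15.4 CPM in the others.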

How the results depend on the processing

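No paired analysis was possible because the replicate numbers of the 2 experiments belong to unrelated mice and no test was run. Of the settings tried, a pseudocount of 5 gave 202 genes upward and 753 downward, a 2-fold limit 2278 and 4121, protein-coding genes alone 259 upward, and centring within GC bins 309 downward. The rank correlation across genes took other values, 0.80 as Pearson's r, 0.86 with no filter, 0.69 at 5 CPM or more, 0.90 after GC centring and 0.82 with near-identical genes summed. The GC centring and the summing were chosen after the data were seen. Across OR genes the rank correlation was 0.74 for every OR gene and 0.62 after GC centring. The histone median was 0.57 at a pseudocount of 5 and 1.95 after GC centring. GC centring reversed the OR median to -0.25, and gave -0.72 for ribosomal proteins, -2.63 for mitochondrial mRNAs and -0.41 for mature OSN genes. Scaling by the median of ratios or by the nuclear protein-coding total gave -0.42 in both cases for mature OSN genes and moved the median of all genes to 0.01 and 0.02. No list median among 39 changed sign under either scaling, and 9 did after GC centring. The share of ORs among nuclear protein-coding genes was 0.250% in the Kir2.1 controls. At 5 CPM or more the median CV was 8.15% and 15.1%. With any one mouse omitted the counts were 461 to 482 genes upward and 1329 to 1458 downward, and median CVs of 7.42% to 8.16% and 14.9% to 17.9%.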
